A study of Homo sapiens with 12 samples.

Results

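The AP-1 and immediate early factors described here are 8 genes: the Jun subunits JUN, JUNB and JUND, the Fos subunits FOS, FOSL1 and FOSL2, the related factor ATF3, and the zinc finger factor EGR1. They were chosen by name from the 4 comparison tables of the study, and all 8 were listed in each table, out of 23195 genes listed in the Nutlin-3a tables and 19393 listed in all 4. PolyA RNA was sequenced from HCT116, a human colorectal carcinoma line that keeps intact p53. Cells were transfected with control siRNA (siControl) or with siRNA to the transcription factor RFX7 (siRFX7), and were then given 10 µM Nutlin-3a or the solvent DMSO for 24 h. Nutlin-3a blocks MDM2, the ligase that keeps p53 low. The 4 groups were siControl with DMSO, siControl with Nutlin-3a, siRFX7 with DMSO and siRFX7 with Nutlin-3a, with 3 libraries each, 12 in all. The labels do not give the siRNA sequences or say how many siRNAs were used, and 1 cell line was studied.

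The tables hold statistics per comparison, so values for single libraries are not given here. Group means were recovered from the deposited statistics, and each is given with its range at 1 standard error (SE) of the authors' model. The labels do not say whether the 3 libraries of a group came from separate cultures, so p-values measure the spread between these libraries, which may be technical. The mean depth of a library, recovered per group, was 26641800 to 27275100 counts. RFX7 itself remained at 19.6% of siControl in DMSO and 22.6% in Nutlin-3a after siRFX7, computed from the authors' deposited tables. The epithelial genes EPCAM, KRT8, KRT18, KRT19 and CDH1 each had a mean of at least 2585 normalized counts, and VIL1 a mean of 8.0. The tables had no row for PTPRC, CD3E or PECAM1, which mark blood and endothelial cells. The stromal markers COL1A1 and VIM were listed at means of 441 and 63.0, and VIM ran from 159 in siControl DMSO to 10.4 in siRFX7 Nutlin-3a. COL1A1 rose with siRFX7, from 400.1 to 515 in DMSO and from 349 to 499.6 with Nutlin-3a (log2 0.36 and 0.52, DESeq2 adjusted p 0.00655 and 6.71e-05, authors' deposited tables), and its part in the results was not tested. In bulk RNA, fewer cells with a transcript and less of it per cell cannot be told apart.

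AP-1 is a pair of basic leucine zipper proteins, usually a Jun subunit with another Jun or a Fos subunit, that binds a short palindrome in promoters and enhancers. Jun proteins can pair among themselves, whereas Fos proteins need a Jun partner. FOS, JUN and EGR1 are immediate early genes: growth factor signalling through ERK switches them on within minutes without new protein synthesis, and their mRNAs are short-lived. FOSL1 and FOSL2 come on later and last longer, JUND is made steadily, and ATF3 is induced by stress and by p53. JUNB is a known RFX7 target.

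The 3 upstream regions below are shown because EGR1 changed most with siRFX7 in DMSO, JUNB is the known RFX7 target, and JUND was the Jun gene with an RFX half-site. Each is the 250 bases before the RefSeq start on build GRCh38.p14, read 5′ to 3′ on the gene's strand. Capitals in EGR1 (chr5:138465229-138465478, plus strand) mark CArG boxes, which serum response factor binds, and half-sites of the cyclic AMP response element (CRE). Capitals in JUNB (chr19:12791236-12791485, plus strand) mark a CRE half-site, a CCAAT box and a TATA box. Capitals in JUND (chr19:18281623-18281872, minus strand) mark the full CRE, a further CRE half-site, an RFX half-site and a CCAAT box. A match on the other strand is capitalised as its reverse complement.
EGR1: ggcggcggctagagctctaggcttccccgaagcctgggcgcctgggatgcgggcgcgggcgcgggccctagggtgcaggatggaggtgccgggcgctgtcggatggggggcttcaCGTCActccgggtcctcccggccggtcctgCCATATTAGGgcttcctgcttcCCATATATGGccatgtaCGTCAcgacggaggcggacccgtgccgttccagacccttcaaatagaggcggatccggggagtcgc
JUNB: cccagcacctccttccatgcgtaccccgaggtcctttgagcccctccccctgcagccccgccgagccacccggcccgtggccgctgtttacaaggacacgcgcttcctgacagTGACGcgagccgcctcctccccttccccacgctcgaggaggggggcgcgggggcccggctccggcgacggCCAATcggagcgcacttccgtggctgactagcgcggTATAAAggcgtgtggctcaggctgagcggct
JUND: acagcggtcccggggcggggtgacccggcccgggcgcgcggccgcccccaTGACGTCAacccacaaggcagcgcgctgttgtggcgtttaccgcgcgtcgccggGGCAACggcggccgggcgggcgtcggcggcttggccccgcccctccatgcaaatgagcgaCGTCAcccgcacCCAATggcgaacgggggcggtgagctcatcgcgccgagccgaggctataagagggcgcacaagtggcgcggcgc

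Both strands were searched, and the same search was run on 35116 RefSeq upstream regions of that length. EGR1 had 2 CArG boxes, beginning 105 and 83 bases before the start, a motif present in 1.16% of all regions. EGR1 also had TGACG at 135 and 66 bases before the start (21.2% of regions hold it) and a match to its own binding site GCGNGGGCG at 198 bases (8.42% of regions), not capitalised. JUND had the full CRE TGACGTCA at 200 bases before the start (1.65% of regions), which contains 2 overlapping TGACG matches. One more TGACG in JUND began at 86 bases. JUND had an RFX half-site, searched as GTTGCC and as GTTGCT, at 146 bases (19.2% of regions). Its CCAAT box began at 74 bases (32.0% of regions). JUNB had the TATA box letters TATAAA at 31 bases (10.7% of regions), a CCAAT box at 67 and a CRE half-site at 137, and neither letter form of the RFX half-site in this window. Of the 8 genes, 7 had an entry. The windows of JUN, FOS, FOSL2 and ATF3 reach into the gene as GENCODE 29 draws it and are not printed. In those, JUN had the variant AP-1 sites (TGACATCA or, as the other form, TTACCTCA) at 186 and 67 bases (3.0% of regions hold one), and 1 of the 2 ATF3 windows had an RFX half-site at 85 bases. These matches describe letters and do not show binding.

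In GENCODE 29 (GRCh38) the Jun genes are single-exon genes: JUN (ENSG00000177606, chromosome 1 from 58780788 to 58784327, minus strand), JUNB (ENSG00000171223, chromosome 19 from 12791496 to 12793315, plus strand) and JUND (ENSG00000130522, chromosome 19 from 18279760 to 18281622, minus strand). FOS (ENSG00000170345) lies on chromosome 14 from 75278774 to 75282230, FOSL1 (ENSG00000175592) on chromosome 11 from 65892049 to 65900573 and FOSL2 (ENSG00000075426) on chromosome 2 from 28392448 to 28417312. ATF3 (ENSG00000162772) spans 55444 bases of chromosome 1 from 212565334 to 212620777, and EGR1 (ENSG00000120738) lies on chromosome 5 from 138465490 to 138469315 with 2 exons. JUNB lies wholly within HOOK2 on the opposite strand, and 14.2% of JUNB exon bases overlap HOOK2 exons. The strand setting of the counting is not given in the sources used here, so reads in that overlap are uncertain. HOOK2 was called changed in none of the authors' 4 deposited tables, with log2 fold changes between -0.13 and 0.05 (DESeq2 adjusted p 0.247 to 0.831).

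Levels are compared between genes only per kilobase of merged exon. JUND was the most abundant Jun transcript, at 2168 normalized counts per kilobase in siControl DMSO, followed by JUNB at 1086 and JUN at 147. Among the Fos genes FOSL1 was at 1051 per kilobase, FOSL2 at 189.9, FOS at 31.6 and FOSB, a further Fos gene, at 10.2. JUND thus made up 63.8% of the summed Jun level in siControl DMSO and FOSL1 81.9% of the summed Fos level. The share of FOS was 2.47% in siControl DMSO and 0.437% in siControl Nutlin-3a. The share of JUN was 4.31% in siControl DMSO and 6.46% in siRFX7 DMSO, and that of JUNB 31.9% and 24.3%. With Nutlin-3a the summed Fos level was 2198 per kilobase in siControl and 2214 in siRFX7, against 1283 and 1187 under DMSO. The summed Jun level was 3401 and 3497 per kilobase in DMSO and 4626 and 4005 under Nutlin-3a, in siControl and siRFX7 in each case. These sums are descriptions without a test.

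**Figure D1:**
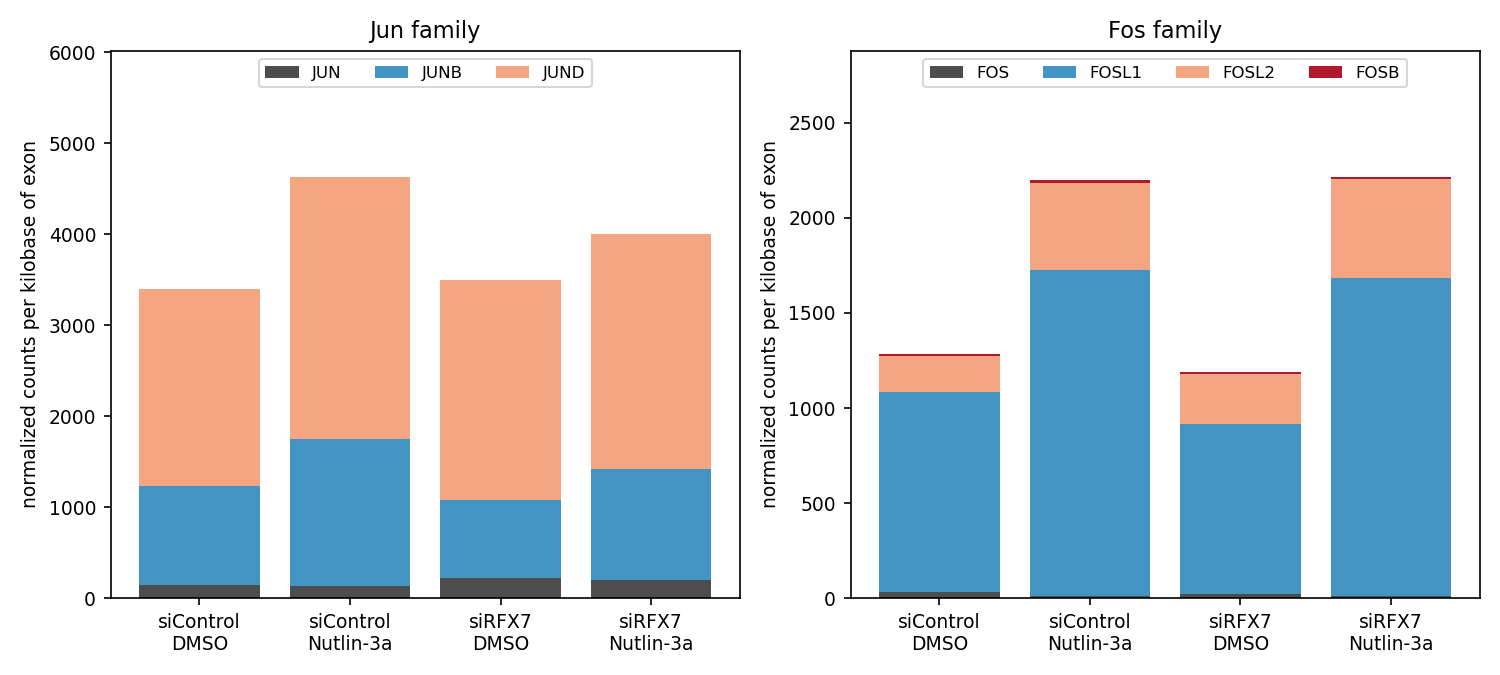
Stacked normalized counts per kilobase of exon (vertical axis) of the Jun genes (left) and the Fos genes including FOSB (right) in the 4 groups. JUND and FOSL1 are the largest blocks in every group, and the summed Fos level is 2198 and 2214 in the Nutlin-3a groups against 1283 and 1187 under DMSO.

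A gene was called changed at a DESeq2 adjusted p under 0.05 by the authors' deposited tables. Nutlin-3a changed 7 of the 8 factors in siControl cells, 5 higher (22.0% of all genes tested were called higher) and 2 lower (21.2% of all genes). In siRFX7 cells it also changed 7, 4 higher (21.7% of all genes) and 3 lower (19.7%). With siRFX7, 5 of the 8 were called in DMSO, 2 higher (13.5% of all genes) and 3 lower (15.5%). In Nutlin-3a, 5 were called, 2 higher (15.0% of all genes) and 3 lower (13.6%). Of all genes with a mean of at least 100 normalized counts, which holds for every factor but FOS, 65.5% were called in either direction for Nutlin-3a in siControl, 62.7% in siRFX7, and 40.5% and 39.1% for siRFX7 under DMSO and in Nutlin-3a. The median log2 fold changes of the 8 factors were 0.49, 0.31, -0.17 and -0.10 in these comparisons, beside 0.02, -0.02, -0.003 and 0.002 for all genes tested. The members did not move as 1 group: FOSL1, FOSL2, ATF3 and JUNB rose with Nutlin-3a under both siRNAs, and FOS and EGR1 fell under both.

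**Figure D2:**
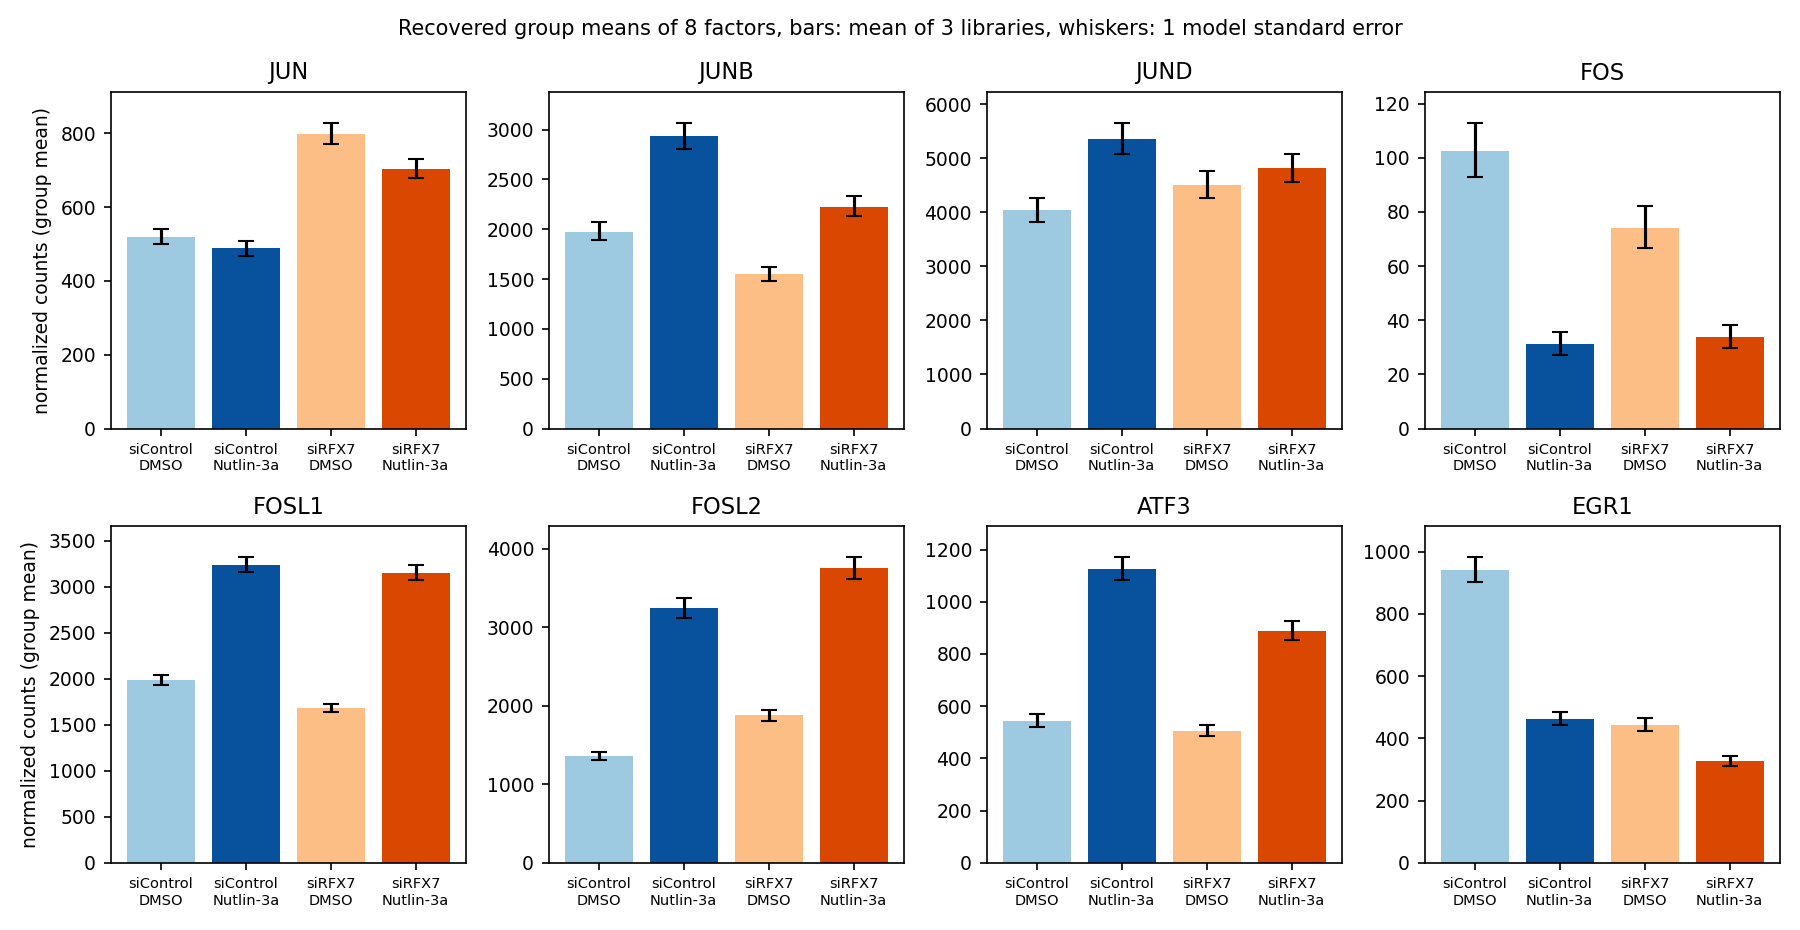
Recovered group means in normalized counts (vertical axes start at 0) for each factor in the 4 groups. Bars are means of 3 libraries and whiskers 1 model standard error; FOS and EGR1 are highest in siControl DMSO, FOSL2 is highest in siRFX7 Nutlin-3a, and JUN is higher in both siRFX7 groups than in either siControl group.

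JUN, the founding Jun subunit and a target of the JNK kinases, had a mean of 519 normalized counts in siControl DMSO (499 to 540.4) and 488 in siControl Nutlin-3a (469 to 508). It was at 799 in siRFX7 DMSO (771 to 829) and 704 in siRFX7 Nutlin-3a (678 to 731). Both siRFX7 groups lay above both siControl groups, and the difference between the siControl groups was within 1.96 SEs. In the authors' deposited tables siRFX7 raised JUN by 0.62 under DMSO (SE 0.08, DESeq2 adjusted p 4.49e-14) and 0.53 under Nutlin-3a (SE 0.08, DESeq2 adjusted p 6.25e-10) in log2 units, or 1.54-fold and 1.44-fold. These rises lay above 96.5% and 96.03% of genes with a mean of at least 100. Nutlin-3a gave JUN a log2 fold change of -0.09 in siControl (95% interval -0.25 to 0.07, DESeq2 adjusted p 0.407) and -0.18 in siRFX7 (95% interval -0.33 to -0.04, DESeq2 adjusted p 0.0367) by the authors' deposited tables. The second of these was lost at an adjusted p under 0.01.

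JUNB, a Jun subunit that often restrains JUN and is linked to growth arrest, had a mean of 1977 normalized counts in siControl DMSO (1888 to 2069) and 2935 in siControl Nutlin-3a (2805 to 3070.3). With siRFX7 it was at 1549 under DMSO (1479 to 1622) and 2227 under Nutlin-3a (2128 to 2331). The groups ran from siControl Nutlin-3a down through siRFX7 Nutlin-3a and siControl DMSO to siRFX7 DMSO, and the middle pair differed by 1.85 SEs. Nutlin-3a raised JUNB by 0.57 in siControl and 0.52 in siRFX7 in log2 units by the authors' deposited tables (SEs 0.09, DESeq2 adjusted p 4.29e-09 and 1.13e-07). In the authors' deposited tables siRFX7 lowered JUNB to 0.784 of siControl in DMSO (log2 -0.35, SE 0.09, DESeq2 adjusted p 0.00112) and to 0.759 under Nutlin-3a (log2 -0.40, SE 0.09, DESeq2 adjusted p 1.40e-04). The siRFX7 effects on JUNB in the 2 treatments differed by -0.05 (95% interval -0.30 to 0.21, z test adjusted p 0.942).

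JUND, the steadily made Jun subunit, had means in siControl cells of 4039 normalized counts with DMSO (3824 to 4266) and 5358 with Nutlin-3a (5074 to 5658). In siRFX7 cells they were 4509 with DMSO (4269 to 4761) and 4812 with Nutlin-3a (4556 to 5082). With the groups in order of level, no neighbouring pair differed beyond 1.96 SEs. Its rise with Nutlin-3a in siControl was called by the authors' deposited table, with a log2 fold change of 0.41 (SE 0.11, DESeq2 adjusted p 8.27e-04). In siRFX7 the log2 fold change was 0.09 (95% interval -0.12 to 0.31, DESeq2 adjusted p 0.557) by the authors' deposited table. For siRFX7, JUND had log2 fold changes of 0.16 under DMSO and -0.16 under Nutlin-3a by the authors' deposited tables, neither called (DESeq2 adjusted p 0.314 and 0.326). JUND also had the widest spread for its level: the model's variation between libraries beyond counting was 9.34%, above that of 93.2% of the 2455 genes within 2-fold of its mean.

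FOS, the serum-induced partner of JUN, was the scarcest of the 8. Its mean was 102 normalized counts in siControl DMSO (92.8 to 113) and 31.1 in siControl Nutlin-3a (27.3 to 35.5). It was at 74.1 in siRFX7 DMSO (66.8 to 82.1) and 33.7 in siRFX7 Nutlin-3a (29.6 to 38.2). Both DMSO groups lay above both Nutlin-3a groups, and the Nutlin-3a groups differed by 0.42 SEs. With Nutlin-3a, FOS fell by 1.72 in siControl (SE 0.24, DESeq2 adjusted p 2.82e-12) and fell by 1.14 in siRFX7 (SE 0.24, DESeq2 adjusted p 7.45e-06) in log2 units by the authors' deposited tables. The siRFX7 log2 fold change was -0.47 under DMSO (95% interval -0.87 to -0.06) with a DESeq2 adjusted p of 0.0729 by the authors' deposited table, so it was not called. In Nutlin-3a it was 0.11 (95% interval -0.41 to 0.63, DESeq2 adjusted p 0.811) by the authors' deposited table. At this level the model put the variation of a single library at 17.0% to 22.6% across groups, so moderate changes of FOS were not detectable.

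FOSL1 (also called FRA1), a Fos subunit maintained by ERK signalling in carcinoma cells, had means of 1984 normalized counts in siControl DMSO (1930.3 to 2038) and 3242 in siControl Nutlin-3a (3159 to 3327). With siRFX7 it was at 1684 under DMSO (1638 to 1731) and 3155 under Nutlin-3a (3074 to 3238). The Nutlin-3a groups lay above the DMSO groups and differed from each other by 0.74 SEs. Nutlin-3a raised FOSL1 1.63-fold in siControl and 1.87-fold in siRFX7 by the authors' deposited tables (log2 0.71 and 0.91, SEs 0.05, DESeq2 adjusted p 1.18e-37 and 5.62e-60). The siRFX7 log2 fold change was -0.24 under DMSO (SE 0.06, DESeq2 adjusted p 1.94e-04) and -0.04 under Nutlin-3a (95% interval -0.14 to 0.06, DESeq2 adjusted p 0.647) by the authors' deposited tables.

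FOSL2 (FRA2), the other late Fos subunit, had the largest rise with Nutlin-3a among the 8. In siControl cells its means were 1359 normalized counts with DMSO (1306 to 1415) and 3242 with Nutlin-3a (3121 to 3368). In siRFX7 cells they were 1877 with DMSO (1805 to 1952) and 3753 with Nutlin-3a (3613 to 3898). With the groups in order of level, all neighbours differed beyond 1.96 SEs, and siRFX7 Nutlin-3a stood 2.76-fold above siControl DMSO. With Nutlin-3a, FOSL2 rose 2.38-fold in siControl and 2.0-fold in siRFX7 by the authors' deposited tables (log2 1.254 and 0.9996, SEs 0.08, DESeq2 adjusted p 3.56e-54 and 1.03e-35). With siRFX7 it rose by 0.47 under DMSO (SE 0.08, DESeq2 adjusted p 1.31e-07) and 0.21 under Nutlin-3a (SE 0.08, DESeq2 adjusted p 0.0265) in log2 units by the authors' deposited tables. The second was lost at an adjusted p under 0.01.

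ATF3, a stress-induced factor of the ATF and CREB family that pairs with Jun proteins, had means of 544 normalized counts in siControl DMSO (521 to 569) and 1126 in siControl Nutlin-3a (1082 to 1172). With siRFX7 it was at 507 under DMSO (485 to 529) and 889 under Nutlin-3a (854 to 927). The DMSO groups lay within 1.96 SEs of each other and below both Nutlin-3a groups. In the authors' deposited tables Nutlin-3a raised ATF3 2.07-fold in siControl and 1.76-fold in siRFX7 (log2 1.05 and 0.81, SEs 0.09, DESeq2 adjusted p 2.59e-33 and 8.15e-20). The siRFX7 log2 fold change was -0.10 under DMSO (95% interval -0.28 to 0.07, DESeq2 adjusted p 0.43) and -0.34 under Nutlin-3a (95% interval -0.50 to -0.18, DESeq2 adjusted p 2.99e-04) by the authors' deposited tables. The fall was called under Nutlin-3a and not in DMSO, and the test of that difference is given with the interactions.

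EGR1, a zinc finger factor that growth signals induce through serum response factor, had the largest change of the 8 with siRFX7 in DMSO, while in Nutlin-3a-treated cells that of JUN was larger. In siControl cells its mean was 943 normalized counts with DMSO (904 to 984) and 463 with Nutlin-3a (442 to 485). In siRFX7 cells it was 444 with DMSO (424 to 465) and 326 with Nutlin-3a (310.5 to 343). The siControl DMSO group stood alone at the top, the next pair differed by 0.63 SEs, and siRFX7 Nutlin-3a was lowest. EGR1 fell to 0.471 of siControl with siRFX7 under DMSO (log2 -1.09, SE 0.09, DESeq2 adjusted p 9.75e-31) and to 0.705 under Nutlin-3a (log2 -0.50, SE 0.10, DESeq2 adjusted p 3.77e-06) by the authors' deposited tables. The DMSO value lay below all but 0.353% of genes with a mean of at least 100. With Nutlin-3a it fell to 0.491 of DMSO in siControl (log2 -1.03, SE 0.09, DESeq2 adjusted p 2.57e-28) and to 0.735 in siRFX7 (log2 -0.44, SE 0.10, DESeq2 adjusted p 2.68e-05) by the authors' deposited tables. The Nutlin-3a comparison in siControl and the siRFX7 comparison in DMSO share the siControl DMSO libraries.

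**Figure D3:**
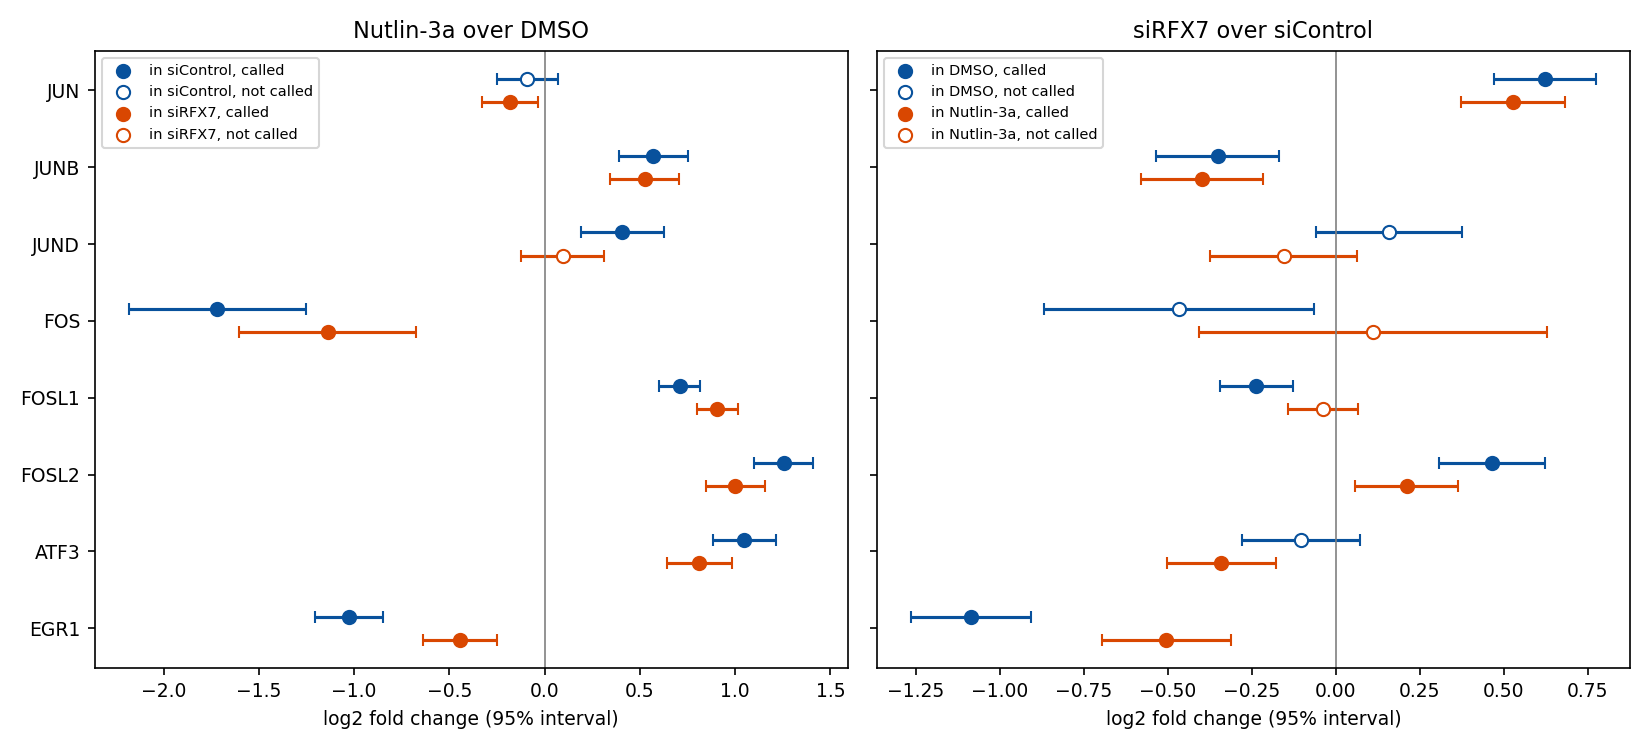
Log2 fold changes with 95% intervals (horizontal axes) of the 8 factors for Nutlin-3a over DMSO (left) and siRFX7 over siControl (right); filled points were called at an adjusted p under 0.05. With siRFX7, JUN lies right of 0 at 0.62 and 0.53, and EGR1 left of 0 at -1.09 and -0.50.

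Whether the Nutlin-3a effect differed with the siRNA was tested as an interaction, the log2 effect in siRFX7 minus that in siControl, by a z test adjusted over 23195 genes. EGR1 was the 1 factor of the 8 called, above 0 (3.28% of all genes were called above 0), and none was called below 0 (2.92% of all genes). Its interaction was 0.58 (SE 0.13, adjusted p 6.45e-04), so the fall of EGR1 with Nutlin-3a was smaller in siRFX7 cells. FOS had the nearly equal value of 0.58 with an SE of 0.33 and an adjusted p of 0.411. The interaction was 0.20 for FOSL1 (95% interval 0.05 to 0.35, adjusted p 0.12), -0.25 for FOSL2 (95% interval -0.47 to -0.03, adjusted p 0.199) and -0.31 for JUND (95% interval -0.62 to -0.01, adjusted p 0.3). ATF3 had -0.24 (95% interval -0.47 to 0.00, adjusted p 0.321) and JUN had -0.09 (95% interval -0.31 to 0.12, adjusted p 0.804). Before adjustment 4 of the 8 had a z test p under 0.05, namely EGR1, FOSL1, FOSL2 and JUND.

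**Figure D4:**
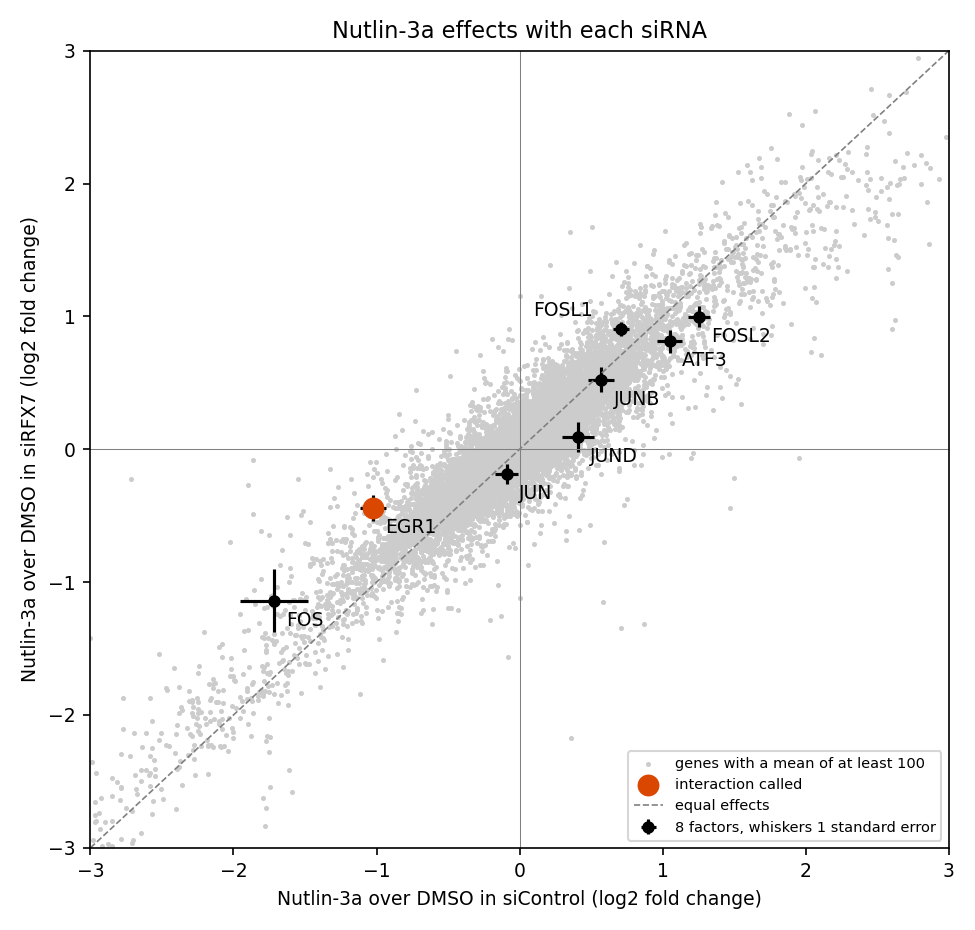
Nutlin-3a log2 fold change in siControl (horizontal axis) against that in siRFX7 (vertical axis) for genes with a mean of at least 100 normalized counts (grey) and the 8 factors (black, whiskers 1 standard error). EGR1 (orange) lies above the line of equal effects at -1.03 and -0.44, and FOS lies at -1.72 and -1.14 with wide whiskers.

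Other leucine zipper genes that pair with AP-1 were listed for 11 of 12. With siRFX7, 2 rose and 3 fell in each treatment by the authors' deposited tables, with medians of -0.03 under DMSO and -0.05 under Nutlin-3a in log2 units. These 5 of 11 called stand beside the 40.5% and 39.1% of genes with a mean of at least 100 that were called either way. MAFF, a small Maf protein, had log2 fold changes of -0.97 under DMSO and -0.79 under Nutlin-3a by the authors' deposited tables (SEs 0.10 and 0.09, DESeq2 adjusted p 6.24e-22 and 4.65e-18). MAFG, a second small Maf gene, had -0.59 and -0.42, both called, while the third, MAFK, had -0.03 and -0.18, neither called, by the authors' deposited tables. JDP2, a repressor that binds AP-1 sites, fell by 1.22 with siRFX7 under DMSO in log2 units, and Nutlin-3a gave it log2 fold changes of -2.02 in siControl and -0.70 in siRFX7, by the authors' deposited tables. Its recovered means in siControl cells were 812 normalized counts with DMSO and 199.96 with Nutlin-3a, and in siRFX7 cells 348 and 214, so 1 group stood high as for EGR1. FOSB, at a mean of 62.4, rose by 0.80 with Nutlin-3a in siControl and had a log2 fold change of -0.26 in siRFX7 that was not called, by the authors' deposited tables. With siRFX7 under Nutlin-3a, FOSB fell by 1.21 in log2 units by the authors' deposited table (SE 0.22, DESeq2 adjusted p 4.51e-07).

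Of 22 other immediate early genes, siRFX7 lowered 12 and raised 1 under DMSO, and lowered 12 and raised 3 under Nutlin-3a, by the authors' deposited tables. Of all genes tested, 15.5% were called lower and 13.5% higher in DMSO, and 13.6% lower and 15.0% higher with Nutlin-3a. The median log2 fold changes of the 22 were -0.30 and -0.36. IER3, an ERK-induced survival gene, fell by 0.88 under DMSO and the nuclear receptor gene NR4A2 fell by 1.52 under Nutlin-3a, in log2 units by the authors' deposited tables. ARC rose with siRFX7, by 0.27 under DMSO and 0.47 under Nutlin-3a, both called, by the authors' deposited tables. ZFP36, which speeds the decay of AU-rich mRNAs, had -0.33 and -0.32, both called, and the phosphatase gene DUSP1 had 0.02 and -0.09, neither called, by the authors' deposited tables. With Nutlin-3a, 11 of the 22 rose (22.0% of all genes) and 1 fell (21.2%) in siControl, by the authors' deposited tables. In siRFX7, 8 rose (21.7% of all genes) and 3 fell (19.7%). EGR2, a relative of EGR1, went the other way from EGR1. Its recovered mean was 12.7 normalized counts in siControl DMSO and 191 in siControl Nutlin-3a, and 13.9 and 313 in siRFX7. The log2 rise of EGR2 was 3.91 in siControl (SE 0.27, DESeq2 adjusted p 2.24e-47) and 4.49 in siRFX7 (SE 0.25, DESeq2 adjusted p 7.22e-71) by the authors' deposited tables. With siRFX7, EGR2 had 0.14 under DMSO, not called, and rose by 0.71 under Nutlin-3a (SE 0.14, DESeq2 adjusted p 2.21e-06) by the authors' deposited tables. NAB2, a corepressor that EGR factors induce and that binds them, rose by 0.87 and 1.07 with Nutlin-3a, while NAB1 had -0.22, called, and -0.07, not called, by the authors' deposited tables. Of the 8 listed corepressors and targets of EGR1, 2 rose and 3 fell with siRFX7 under DMSO, and 1 rose and 3 fell in Nutlin-3a, by the authors' deposited tables. Among genes with a mean of at least 100, which all 8 have, 40.5% and 39.1% were called either way.

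The feedback genes of ERK signalling, the pathway that drives EGR1, FOS and FOSL1, moved mostly downward with siRFX7. By the authors' deposited tables, siRFX7 lowered 10 of the 12 under DMSO and 9 of the 12 under Nutlin-3a, and raised none. Of all genes tested, 15.5% and 13.6% were called lower. Among genes with a mean of at least 100, which all 12 have, 40.5% and 39.1% were called either way. The medians of the 12 were -0.48 and -0.39 in log2 units, beside -0.003 and 0.002 for all genes tested. SPRY4, an ERK inhibitor, fell by 1.02 under DMSO (SE 0.06, DESeq2 adjusted p 7.76e-62) but by 0.23 under Nutlin-3a (SE 0.06, DESeq2 adjusted p 6.69e-04) by the authors' deposited tables. DUSP6, an ERK phosphatase, fell by 0.88 under DMSO (SE 0.05, DESeq2 adjusted p 1.70e-68) and 1.26 under Nutlin-3a (SE 0.05, DESeq2 adjusted p 7.60e-132) by the authors' deposited tables. ETV5, an ETS factor downstream of ERK, fell by 1.01 under DMSO and 0.61 under Nutlin-3a in log2 units by the authors' deposited tables. With Nutlin-3a, 4 of the 12 rose (22.0% of all genes) and 3 fell (21.2%) in siControl, by the authors' deposited tables. In siRFX7, 7 rose (21.7% of all genes) and 3 fell (19.7%). SPRY1 had the largest of these rises, with log2 fold changes of 2.17 and 2.07 by the authors' deposited tables. ERK activity itself was not measured, and whether it has a part in the values of EGR1 and FOS was not tested.

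**Figure D5:**
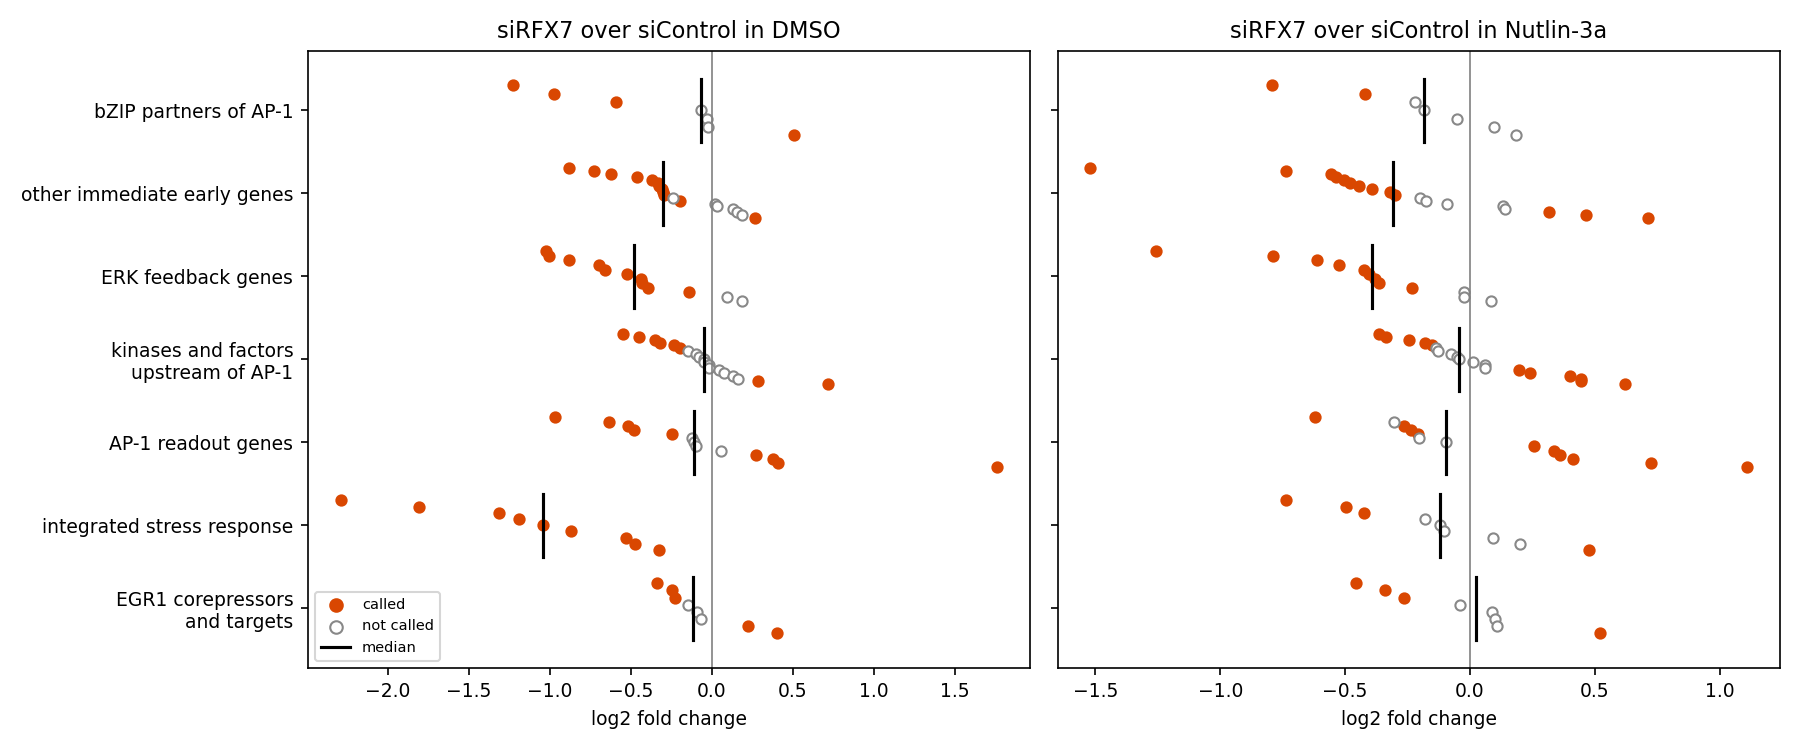
Log2 fold changes for siRFX7 over siControl (horizontal axes) in DMSO (left) and Nutlin-3a (right) of genes in 7 lists with a mean of at least 100 normalized counts. Each point is a gene, filled if called, and black bars are medians over the points shown; the ERK feedback genes called in either panel lie left of 0.

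Among 21 kinases and factors upstream of AP-1, siRFX7 raised 3 and lowered 6 under DMSO, and raised 6 and lowered 5 under Nutlin-3a, by the authors' deposited tables. Those called, 9 and 11 of 21, compare with 40.5% and 39.1% of genes with a mean of at least 100. MAP2K4, a kinase that activates JNK, rose by 0.72 and 0.62 in log2 units by the authors' deposited tables (SEs 0.05, DESeq2 adjusted p 6.05e-38 and 3.62e-30). FBXW7, part of a ligase that degrades JUN, rose with Nutlin-3a, by 0.79 in siControl cells and 1.08 in siRFX7 cells, by the authors' deposited tables, and the kinase gene MAPK9 fell by 0.78 in siControl. Of 21 genes commonly read as AP-1 targets, 18 were listed in the Nutlin-3a tables and 17 in the siRFX7 tables. Nutlin-3a raised 10 and lowered 2 in siControl and raised 13 and lowered none in siRFX7, by the authors' deposited tables. Those called either way were 12 and 13 of 18, against 43.2% and 41.4% of all genes tested. Of all genes, 22.0% were called higher and 21.2% lower in siControl, and 21.7% and 19.7% in siRFX7. Among genes with a mean of at least 100, which 13 of the 18 have, 65.5% and 62.7% were called. The medians of those 13 were 0.40 and 0.41 in log2 units, beside 0.02 and 0.03 for all genes at that mean. LAMA3, a laminin chain, rose by 2.65 and 1.997 in log2 units by the authors' deposited tables. With siRFX7 these genes went both ways, with 5 higher and 5 lower in DMSO and 6 higher and 4 lower in Nutlin-3a by the authors' deposited tables. Of all genes tested, 13.5% were called higher and 15.5% lower in DMSO, and 15.0% and 13.6% in Nutlin-3a.

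ATF3 can be induced by ATF4, the main factor of the integrated stress response. The 10 listed genes of that response, ATF4 among them, went both ways with Nutlin-3a and all fell with siRFX7 under DMSO. In the authors' deposited tables ATF4 fell by 1.47 with Nutlin-3a in siControl (SE 0.08, DESeq2 adjusted p 1.77e-81) and by 1.04 with siRFX7 under DMSO (SE 0.08, DESeq2 adjusted p 1.69e-40), while ATF3 rose in the first and was not called in the second. DDIT3, a partner of ATF4 and ATF3, fell by 1.87 with Nutlin-3a in siControl and by 1.31 with siRFX7 under DMSO in log2 units by the authors' deposited tables. The other 2 comparisons differed. With siRFX7 under Nutlin-3a, DDIT3 rose by 0.48 (DESeq2 adjusted p 1.73e-04) and ATF4 had -0.12, not called, by the authors' deposited table. With Nutlin-3a in siRFX7, DDIT3 had -0.08, not called, and ATF4 fell by 0.55, by the authors' deposited table. SESN2, a stress gene that p53 also induces, rose by 0.94 with Nutlin-3a in siControl cells and 1.501 in siRFX7 cells, as CEBPD did by 0.64 and 0.68, in log2 units by the authors' deposited tables. PPP1R15A, which reverses the block on translation, rose by 0.42 in siControl cells and had 0.01 in siRFX7 cells, not called, by the authors' deposited tables. All 10 genes of this list fell with siRFX7 under DMSO (15.5% of all genes tested were called lower), with a median of -1.11. In Nutlin-3a, 4 fell (13.6% of all genes) and 1 rose (15.0%), with a median of -0.15, by the authors' deposited tables. The medians of all genes tested were -0.003 and 0.002. With Nutlin-3a, 3 rose (22.0% of all genes) and 7 fell (21.2%) in siControl, by the authors' deposited tables. In siRFX7, 2 rose (21.7% of all genes) and 4 fell (19.7%).

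For each factor the 3 genes nearest in pattern were found by Euclidean distance over the 4 group means, in log2 units and centred on each gene's own mean, among 12463 genes with a mean of at least 100. All points come from the same 12 libraries, and the distances are descriptions. The nearest to EGR1 was ETV5 at a distance of 0.095, followed by TUBE1 at 0.162 and the processed pseudogene MTHFD2P7 at 0.167. Nearest to JUN were MFSD11 (0.050), CHD5 (0.061) and ZNF703 (0.067), and to JUNB S100A14 (0.039), CPEB3 (0.049) and TSPAN12 (0.055). Nearest to JUND were CDK20 (0.022), MIEN1 (0.025) and the pseudogene AC034102.1 (0.027). FOS had the pseudogene H2AFVP1 (0.077), COQ2 (0.098) and LIPE (0.130). FOSL1 had RRBP1 (0.031), FCHO2 (0.045) and ABCC3 (0.045), and FOSL2 had YPEL5 (0.053), RTL5 (0.070) and GAA (0.076). ATF3 had the pseudogene LYPLA2P2 (0.035), PLXNB2 (0.037) and ADGRE2 (0.066). Reads of the pseudogenes may be those of their parent genes. Among the 8 factors the closest pair was FOSL1 with ATF3 at 0.263 and the most distant FOS with FOSL2 at 2.64.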

How the data were processed

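PolyA RNA of 12 HCT116 libraries, made from 500 ng of total RNA, was compared in 4 groups of 3. Per the submitters' processing notes the build was hg38 and the tools included bcl2fastq 2.20.0.422, Trimmomatic 0.39, FastQC 0.11.9, cutadapt 2.10, SAMtools 1.10, Picard, featureCounts 1.6.5 and DESeq2 1.20.0. The aligner, annotation and strand setting are not given in the sources used here.

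The deposited mean normalized count is a signal, counts divided by size factors and averaged over libraries, per the file headers. The deposited fold changes and SEs are on a log2 scale, the deposited statistic is a score (fold change over standard error), and the deposited p-value columns hold the authors' test and its Benjamini-Hochberg adjustment. Both knockdown tables were taken to give siRFX7 relative to siControl, since the 4 tables then closed to within 1.29e-14. The design planned edgeR for counts per library, and its fallback, the authors' statistics, was used.

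Group means, size factors and dispersions were solved from the deposited values. Over 15861 genes the fitted squared SEs matched to a median relative residual of 6.27e-06. The interaction was a two-sided z test with SEs taken as known. The scripts (Python 3.11.15, numpy 2.4.6, scipy 1.17.1) were tested on simulated data. GENCODE 29 held 23164 of 23195 identifiers. The genes named beyond the 8 follow a rule: in each list, at most the 2 largest called changes per direction and comparison at a mean of at least 100, 10 genes fixed by name, and 3 nearest patterns per factor. One gene that the rule selects is not reported here. The members and lists were chosen with earlier results of these data known. Alternatives were a minimum log2 change of 0.58, an adjusted p under 0.01, scaling to equal group totals, centring on the median, genes with a mean of at least 100, and genes listed in all 4 tables.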

Additional observations from a re-analysis of the deposited data

Results flagged for a closer look

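Among the 8 factors, the list genes named here and the markers, the interaction z test found these unlike Nutlin-3a effects with the 2 siRNAs. Values are in log2 units of siRFX7 minus siControl, with an adjusted p under 0.05 over 23195 genes. Among the 8 factors this was EGR1, at 0.58. Among the AP-1 partners it was JDP2 at 1.32 and FOSB at -1.06, and among other immediate early genes NR4A1 at 0.61, KLF4 at 0.44, IER3 at 0.32, NR4A2 at -1.15 and KLF6 at -0.46. ERK feedback genes named by the rule had 0.79 for SPRY4, 0.50 for SPRED2, -0.38 for DUSP6 and -0.24 for PHLDA1. ETV5, named as the nearest pattern to EGR1, had 0.39. Nearest-pattern genes outside the lists were not screened, and of these TUBE1 and MTHFD2P7, also near EGR1, had interactions of 0.75 and 0.66. Upstream kinases and regulators had 0.52 for MAPK9, 0.35 for MAPK14 and 0.29 for FBXW7. The epithelial marker KRT19 had -0.67. Genes read as AP-1 targets had 0.76 for VEGFA, 0.46 for GCLM, -0.65 for LAMA3 and -0.29 for PLAU. Stress response genes had 2.49 for CHAC1, 1.79 for DDIT3, 0.92 for ATF4 and 0.56 for SESN2, and ID3 of the EGR1 list had -0.31. The adjusted p was 6.45e-04 for EGR1, 0.0150 for FOSB and 0.0392 for ID3.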

How the results depend on the processing

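No value of the 8 factors changed direction under the 6 alternatives, and 220 of 235 kept their side of the threshold. The other 15 lost their call, 13 by the minimum log2 change of 0.58 and 2 by an adjusted p under 0.01 (JUN with Nutlin-3a in siRFX7 and FOSL2 with siRFX7 in Nutlin-3a). The EGR1 interaction, at 0.5819, kept its call only narrowly at the minimum of 0.58. Equal group totals and centring on the median each shifted interactions by -0.03, more than that margin, and neither was combined with the minimum. With the minimum of 0.58, 3 factors stayed higher with Nutlin-3a in siControl, 4 stayed called in siRFX7 with 1 lower, 2 stayed called with siRFX7 in DMSO, 1 higher and 1 lower, and 0 stayed called in Nutlin-3a, 0 higher and 0 lower. Over all genes that minimum left 2585 higher and 2613 lower for Nutlin-3a in siControl, 2407 and 2423 in siRFX7, 1044 and 503 for siRFX7 in DMSO, 801 and 681 in Nutlin-3a, and 185 above and 359 below 0 for the interaction. An adjusted p under 0.01 left 1 factor higher with siRFX7 in Nutlin-3a, and 446 and 417 interactions above and below 0. Among genes with a mean of at least 100, FOS is left out by construction, so 1 factor was lower with Nutlin-3a in siControl. Rescaling to equal group totals shifted log2 values by at most 0.06. It moved the calls for siRFX7 in DMSO from 2704 higher and 3107 lower to 3391 and 2262, and interactions from 760 and 677 to 583 and 792. Of 420 list counts, 70 moved by over 1.5 times. Of 883 values of named list genes 61 lost their call, and none changed direction where either setting called it. Changes of sign in values called in neither setting were not counted. For MAFK with siRFX7 in DMSO, the log2 value of -0.03 is smaller than the shift of 0.06 from equal group totals. Leaving out a replicate and a new count test need values per library and were not run. No paired analysis was possible because the columns carry no replicate. Across comparisons the median SE was 0.09 for genes with a mean of at least 100, against 0.21 to 0.26 for FOS, the factor with the lowest mean count.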
